A study of Mus musculus with 16 samples.

Results

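Sntb1, Nos1 and Lama2 encode partners of the dystrophin-glycoprotein complex. They were chosen by symbol from a deposited table of 831 genes, in which the Ensembl identifiers of all 3 were found, and their levels were followed across 4 genotypes. Dmd, which encodes dystrophin, and its relative Utrn are not among the 831 genes and were not analysed here. RNA sequencing was done on whole tibialis anterior, a muscle of the lower leg with mostly fast fibres, from mice at postnatal day 30, in 16 libraries with 4 for each genotype. The mdx/miR-133b-/- group, called the double mutant from here on, carries the mdx allele of Dmd and also lacks the microRNA miR-133b. The mdx group carries the mdx allele alone and is a mouse model of Duchenne muscular dystrophy. The miR-133b-/- group lacks miR-133b alone, and the Control group is wild type. The sources used here do not give sex, strain or how the miR-133b allele was made. Nothing in the labels ties each library to an animal of its own, so the p-values reflect how these samples varied, and that variation may be technical.

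The dystrophin-glycoprotein complex spans the muscle fibre membrane and links the actin cytoskeleton inside the fibre to the basement membrane outside it. Dystrophin binds actin and the transmembrane protein beta-dystroglycan, and alpha-dystroglycan on the outer face binds laminin. Dystrophin also carries a group of signalling proteins: syntrophins are adaptors bound to dystrophin, and neuronal nitric oxide synthase is anchored at the membrane by syntrophin and by the rod of dystrophin. In muscle without dystrophin the complex is largely lost from the membrane and the synthase moves into the cytosol, as is known from protein studies. The data here are RNA levels and do not measure protein or its place in the fibre.

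Each value is a scaled read: the number of reads counted for a gene in a library, multiplied by 1 factor for that library. The factors lay between 0.459 and 1. Reads in the 831 genes numbered 2356990 to 3355306 per library in the double mutant, 2879407 to 3655796 in mdx, 2699028 to 6000033 in miR-133b-/- and 3219038 to 4317386 in Control; the full depth is unknown. Mitochondrially encoded genes took 22.4% to 34.3% of these reads in the double mutant, 23.0% to 27.3% in mdx, 30.4% to 39.2% in miR-133b-/- and 30.2% to 37.7% in Control, which bears on any scale set by the total of listed reads. The listed genes are a selection, since the means of the double mutant and of miR-133b-/- differed by at least 1.72-fold, either way, in every one of them. Comparisons that use either of these groups therefore share libraries with the selection, and of the comparisons below the difference of mdx from Control alone uses neither. No listed gene checks the genotypes, since Dmd and the miR-133b locus were not analysed here. Groups were taken from the code in each title; the description field names another code for 14 of the 16 libraries. Grouping by that field would move 12 libraries and leave 0 genes called by limma between mdx and Control, against 550 with the titles.

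Sntb1 encodes beta-1-syntrophin, an adaptor that binds dystrophin and utrophin. Its gene (ENSMUSG00000060429) lies on the minus strand of chromosome 15 at chr15:55636388-55906949 in GRCm38, with 5324 bases of annotated exon, and no other annotated gene overlaps it. Nos1 encodes neuronal nitric oxide synthase, which makes nitric oxide and in muscle serves blood flow and contraction. Its gene (ENSMUSG00000029361) lies on the plus strand at chr5:117781032-117958840, with 11151 bases of exon. The antisense model Gm26995 shares 268 exon bases with it. Lama2 encodes the laminin alpha-2 chain, the laminin chain of the muscle basement membrane that binds alpha-dystroglycan; its loss causes a congenital muscular dystrophy. Its gene (ENSMUSG00000019899) lies on the minus strand at chr10:26980036-27619758, with 16338 bases of exon, of which 631 are shared with the antisense model Gm48084. Whether counting used strand is not given in the sources used here, so reads of Nos1 and Lama2 cannot be told from those of these antisense models, neither of which is among the 831 genes.

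Because 2 of the 4 groups lack miR-133b, its sequence is shown beside the places in the 3′ UTRs of these genes that match its seed. The mature miR-133b-3p (RefSeq, GRCm38.p6, chr1:20682834-20682855, plus strand) has its seed, bases 2 to 8, in capitals, and the sites have the matching bases in capitals.
mmu-miR-133b-3p: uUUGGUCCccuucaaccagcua
Sntb1 (chr15:55636531-55636558, minus strand): atgaactacccaGACCAAggtatttaat
Nos1, upstream site (chr5:117956727-117956754, plus strand): gtagagagtaaaGACCAAgggagtagag
Nos1, downstream site (chr5:117958073-117958100, plus strand): cttcaaccattGGACCAAgaagtcattg
The search took the transcript strand of the longest annotated 3′ UTR of each gene, read from GRCm38 with GENCODE M21. It looked for GACCAA, which pairs with bases 2 to 7, and for GGACCAA, which holds GACCAA and pairs with bases 2 to 8. In Sntb1 the 3′ UTR of 2947 bases holds GACCAA at bases 2789 to 2794, counted from the base after the stop codon. In Nos1 the 3′ UTR of 5027 bases holds GACCAA at bases 2926 to 2931 and GGACCAA at bases 4271 to 4277. The Lama2 3′ UTR of 210 bases holds neither. Of the 780 listed genes with an annotated 3′ UTR, whose median length is 1415 bases, 28.7% hold GACCAA and 9.74% hold GGACCAA in the longest one. These matches are letters in the annotation, and no measurement here bears on binding.

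Sntb1 had its lowest means in both groups with dystrophin and higher means in both mdx groups. Its scaled reads were 238, 227, 329.8 and 302 in the double mutant and 178, 248, 264 and 226 in mdx. They were 159, 128, 136 and 119.9 in miR-133b-/- and 169, 171, 170.4 and 178 in Control. The order of the group means was double mutant (274 ± 49.9), mdx (229 ± 37.6), Control (172 ± 3.92) and miR-133b-/- (136 ± 16.8; SD, n = 4 each). The values of the double mutant and of mdx overlapped, and those of mdx and Control met at a single point, where the lowest mdx library (177.60) lay just under the highest Control library (177.63). All 4 miR-133b-/- libraries lay below all 4 Control libraries. These levels rest on 342 to 571 reads per library in the double mutant, 323 to 478 in mdx, 159 to 253 in miR-133b-/- and 233 to 271 in Control. The Control libraries varied by 2.28% (SD over mean), below the 6.07% to 6.55% that counting error alone gives for their reads, so their spread understates the error of Sntb1.

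Nos1 was low in the double mutant alone. Its scaled reads were 519, 628, 577 and 461 in the double mutant and 853, 707, 938 and 1167 in mdx. In miR-133b-/- they were 868, 978, 1450.0 and 1089, and in Control 1467, 766, 926 and 985. Every double mutant library lay below all 12 other libraries, while the mdx, miR-133b-/- and Control libraries overlapped. Among all listed genes, the double mutant did not overlap with mdx in 26.6%, with Control in 78.3% and with miR-133b-/- in 78.6%. The last of these differences chose the table. The share of genes set apart from all 12 libraries at once was not counted. From the top, the group means were miR-133b-/- (1096 ± 253), Control (1036 ± 302), mdx (916 ± 193) and the double mutant (546 ± 72.4; SD, n = 4 each), and the first 3 did not differ beyond their spread. Control library 1, at 1467, stood apart from the other 3 Control libraries, which lay between 766 and 985.

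Lama2 was higher in both mdx groups than in both groups with dystrophin. Its scaled reads were 2503, 2079, 2393 and 1818 in the double mutant and 1878, 1967, 1619 and 1632 in mdx. In miR-133b-/- they were 1058, 1159, 1038 and 1139, and in Control 901, 1425, 1349 and 1264. Every library with the mdx allele lay above every library without it. Within each pair of groups the values overlapped, since the lowest double mutant library (1818) lay inside the mdx range and the miR-133b-/- libraries inside the Control range. Gaps between groups were common among the listed genes: mdx and Control did not overlap in 70.4%. The double mutant did not overlap with Control in 78.3% and with miR-133b-/-, the difference that chose the table, in 78.6%. The share of genes that split all libraries by the mdx allele was not counted. The group means were 2198 ± 311 in the double mutant, 1774 ± 175 in mdx, 1099 ± 59.6 in miR-133b-/- and 1235 ± 232 in Control (SD, n = 4 each).

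**Figure D1:**
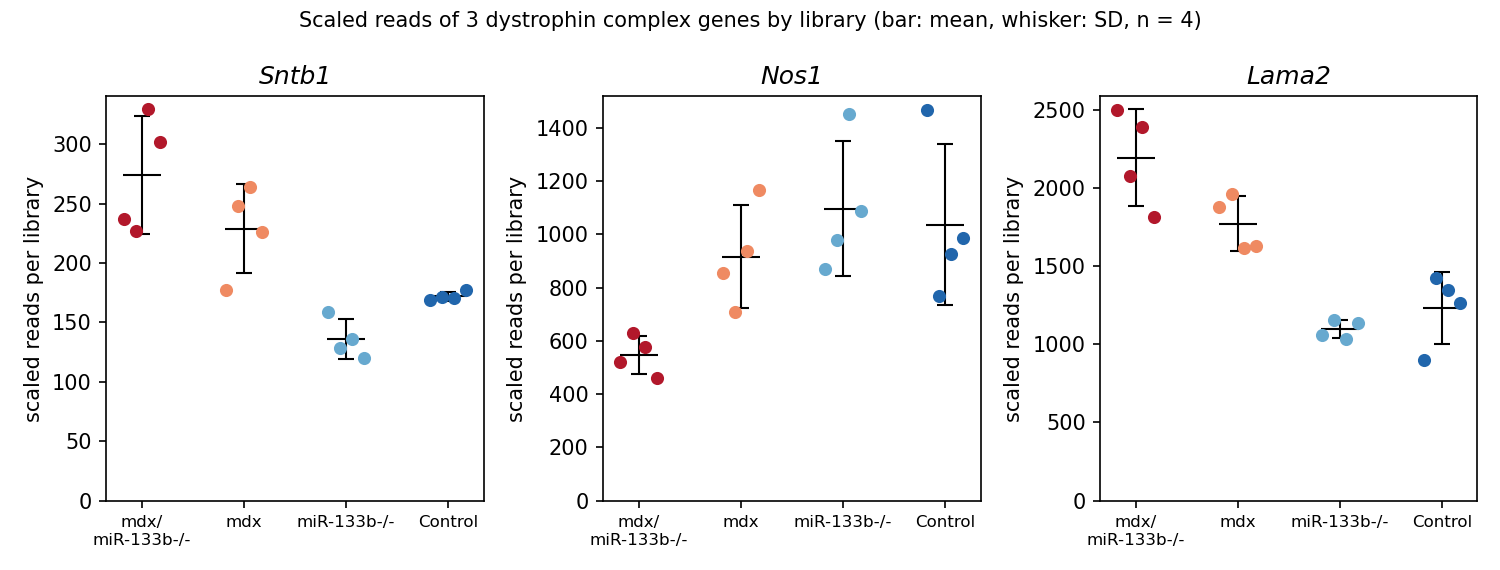
Scaled reads of Sntb1, Nos1 and Lama2 in each of the 16 libraries, by genotype. Points are libraries and bars are group means (n = 4). Sntb1 and Lama2 have higher means in both mdx groups, and Nos1 is low in the double mutant alone, at 461 to 628 scaled reads.

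Levels of the 3 genes can be compared with each other only per length of exon. Per kilobase of annotated exon, Nos1 stood at 49.0 ± 6.49 scaled reads in the double mutant, 82.2 ± 17.3 in mdx, 98.3 ± 22.6 in miR-133b-/- and 92.9 ± 27.1 in Control. Lama2 stood at 134.5 ± 19.01 in the double mutant, 108.6 ± 10.7 in mdx, 67.2 ± 3.65 in miR-133b-/- and 75.6 ± 14.2 in Control. Sntb1 stood at 51.5 ± 9.38 in the double mutant, 43.0 ± 7.06 in mdx, 25.5 ± 3.15 in miR-133b-/- and 32.3 ± 0.74 in Control (SD, n = 4 each). In Control muscle Nos1 and Lama2 thus overlapped, and both lay above Sntb1. In the double mutant Lama2 lay highest and Nos1 overlapped with Sntb1. The exon lengths are unions over annotated transcripts, so they are approximate where a muscle uses only some of them. The union exceeds the longest annotated transcript most in Lama2 (16338 against 9614 bases). In Nos1 (11151 against 10123) and Sntb1 (5324 against 4919) the 2 lengths are closer. The level of Lama2 per kilobase is thus the one most lowered by the use of unions.

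In mdx against Control, which asks what accompanies the loss of dystrophin, 1 of the 3 genes was called. Lama2 was 1.45-fold higher in mdx (log2 fold change 0.54, SE 0.17, 95% interval 0.18 to 0.90, adjusted p = 0.0101 by limma), with no overlap between the groups. Sntb1 had a log2 fold change of 0.40 (SE 0.19, interval -0.0034 to 0.79, adjusted p = 0.0740), and Nos1 one of -0.16 (SE 0.22, interval -0.61 to 0.30, adjusted p = 0.513). Neither passed the threshold of 0.05 on p-values adjusted over all 831 genes by the Benjamini-Hochberg method. Calls were common among the listed genes: 66.2% were called in this comparison, 44.5% higher and 21.7% lower, and the groups did not overlap in 70.4%. That split depended on the scale: of the 831 genes 370 were called higher and 180 lower with the authors' factors, 260 and 270 with relative log expression factors, and 478 and 33 with the total of listed reads. Over all listed genes the median log2 fold change was 0.44, so the difference in Lama2 lay close to that of the listed genes as a whole. In exact permutation tests over the 8 libraries, two-sided, p was 0.0286 for Lama2, the smallest that 4 against 4 allow, 0.0571 for Sntb1 and 0.571 for Nos1.

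Both values near the threshold moved with the scaling. Relative log expression factors, which set the median listed gene of every library to a common level and took the median log2 fold change to 0.09, put Lama2 at 0.18 (adjusted p = 0.369 by limma), and removing the trend of each library with GC content and length put it at 0.29 (0.110). Sntb1 stood at 0.0402 (0.867) with relative log expression factors and at 0.27 (0.181) without the trend in GC content and length. It was called with the total of listed reads as the scale (0.90, adjusted p = 0.00188), with that total less the mitochondrially encoded genes (0.72, 0.0112), when only the mdx and Control libraries were fitted (0.40, 0.0357) and without mdx library 1 (0.51, 0.0375).

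Whole muscle holds many cell types, and in bulk RNA fewer cells of a type and less RNA per cell cannot be told apart. Lama2 is made by fibroblasts as well as by muscle. All 6 listed markers of fibro-adipogenic progenitors and fibroblasts, of a list of 16 (Pdgfra, Lum, Fap, Col3a1, Postn and Fn1), rose in mdx against Control, by a median of 1.25 on the log2 scale. Their summed level was 27475 to 52278 scaled reads in the double mutant, 39606 to 41550 in mdx, 9290 to 21206 in miR-133b-/- and 12416 to 22797 in Control. By group means Col3a1 made up most of this sum. Set against the mean log2 level of these 6 genes in the same library, Lama2 differed between mdx and Control by -0.81 (SE 0.08, exact permutation p = 0.0286, adjusted over 8 such tests 0.0762). The same measure differed by 0.41 between the double mutant and mdx (SE 0.11) and by -0.39 between the double mutant and Control (SE 0.12). Both had the same exact permutation p of 0.0286 and adjusted 0.0762. Between miR-133b-/- and Control it differed by 0.03 (exact permutation p = 0.971). Macrophage markers also rose in mdx against Control, with 13 of 14 listed genes higher and a sum of 7562 to 11805 scaled reads in mdx against 1552 to 2529 in Control. Among muscle fibre lists, all 9 listed genes of regenerating fibres rose in mdx against Control (median 1.96). Their summed level, by group means mostly Igf2, was 9161 to 12785 scaled reads in mdx and 1388 to 3898 in Control. All 4 listed genes of slow fibres also rose in mdx against Control (median 1.70). For comparison, 44.5% of all listed genes were called higher in mdx against Control, with a median log2 fold change of 0.44. The listed genes of these lists also passed the selection on the double mutant against miR-133b-/-. The part of these cells and fibres in the level of Lama2 was not tested.

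The comparison of miR-133b-/- with Control asks what the loss of miR-133b does where dystrophin is present. None of the 3 genes passed, nor did any other listed gene: limma called 0 of 831 (0%), as did limma-voom on the reads, with 84 genes (10.1%) at an unadjusted p under 0.05. Sntb1 had a log2 fold change of -0.35 (SE 0.19, interval -0.74 to 0.05, adjusted p = 0.563). Its groups did not overlap, which held for 4.69% of listed genes, and the exact permutation p was 0.0286. Nos1 stood at 0.10 (SE 0.22, interval -0.36 to 0.55, adjusted p = 0.909) and Lama2 at -0.15 (SE 0.17, interval -0.51 to 0.21, adjusted p = 0.792), and the groups of both overlapped. The sign of the Nos1 value hung on single libraries, since it was -0.05 without miR-133b-/- library 3 and -0.03 without Control library 2.

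The comparison of the double mutant with mdx asks the same in dystrophic muscle, and here Nos1 fell and the other 2 genes did not pass. Nos1 had a log2 fold change of -0.73 (SE 0.22, interval -1.19 to -0.28, adjusted p = 0.0288 by limma), 0.602 of the mdx level. The groups did not overlap, and the exact permutation p was 0.0286. Sntb1 stood at 0.26 (SE 0.19, interval -0.14 to 0.65, adjusted p = 0.388), and Lama2 at 0.30 (SE 0.17, interval -0.05 to 0.66, adjusted p = 0.237). Among all listed genes 19.5% were called, 7.46% higher and 12% lower, and the groups did not overlap in 26.6%. With the authors' factors 62 genes were called higher and 100 lower, and the balance turned with the total of listed reads, to 68 higher and 24 lower (83 and 19 without mitochondrially encoded genes). Over all listed genes the median was -0.04 on the log2 scale.

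The call of Nos1 was lost without double mutant library 3 (log2 fold change -0.76, adjusted p = 0.0527) or 4 (-0.65, 0.0878), and without mdx library 1 (-0.76, 0.0592), 3 (-0.71, 0.0748) or 4 (-0.61, 0.0887), by limma. It was also lost with the total of listed reads as the scale (-0.47, 0.192) and with that total less the mitochondrially encoded genes (-0.39, 0.244).

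Fast-fibre genes fell in the same comparison as Nos1. Of 15 fast-fibre markers 4 are listed, and in the double mutant against mdx Actn3, Pvalb and Ckm fell while Myh4 did not pass. The median of the 4 was -0.71 on the log2 scale, and 12% of all listed genes were called lower there. Without mdx library 3 none of the 3 was called (Actn3 -0.80, Pvalb -0.65 and Ckm -0.55, adjusted p 0.0600 to 0.0906 by limma); Pvalb and Ckm were also not called without double mutant library 3 or 4 or mdx library 1, and Ckm without mdx library 4 (adjusted p up to 0.0846). Without the trend in GC content and length none of the 3 was called (Actn3 -0.58, Pvalb -0.46 and Ckm -0.41, adjusted p 0.0954 to 0.131), while Nos1 was (-0.85, 0.0300). With the total less mitochondrially encoded genes Pvalb (-0.44, 0.0592) and Ckm (-0.29, 0.155) were not called. In mdx against Control Myh4 (-0.60, adjusted p = 0.0472) and Ckm (-0.45, 0.0409) fell, Actn3 (-0.52, 0.0514) and Pvalb (-0.22, 0.383) did not pass, and neither did Nos1 (-0.16, 0.513). The calls of Myh4 and Ckm there were lost under 11 and 13 of 22 other settings. The summed level of the 4 listed genes was 256312 to 320334 scaled reads in the double mutant, 375355 to 552424 in mdx, 314869 to 730433 in miR-133b-/- and 592292 to 730110.0 in Control. By group means Myh4 made up most of this sum. Set against the mean log2 level of these 4 genes in the same library, Nos1 differed between the double mutant and mdx by -0.01 (SE 0.23, exact permutation p = 0.971). The same measure differed between mdx and Control by 0.29 (exact permutation p = 0.314). The 4 listed fast-fibre genes and Nos1 also passed the selection on the double mutant against miR-133b-/-, and all of them were lower in the double mutant there. That selection favours a joint fall and a small difference between them, so these values are a description. How far the level of Nos1 goes with the amount or state of fast fibres was not tested beyond these values.

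The double mutant against Control combines both changes, and all 3 genes passed. Sntb1 was 1.57-fold higher in the double mutant (log2 fold change 0.65, SE 0.19, adjusted p = 0.00409 by limma). Lama2 was 1.79-fold higher (0.84, SE 0.17, adjusted p = 0.000277). Nos1 fell by 0.89 on the log2 scale (SE 0.22, adjusted p = 0.00109), 0.539 of the Control level. The groups did not overlap in any of the 3, and the exact permutation p was 0.0286 in each. This comparison shares its libraries with the 2 that come before it, and 91.2% of listed genes were called in it (54.3% higher and 36.9% lower, with no overlap in 78.3%), so the count of 3 lies near the background. With relative log expression factors 323 genes were called higher and 332 lower, and with the total of listed reads 503 and 51, against 451 and 307 with the authors' factors. With the trend in GC content and length removed, Sntb1 stood at 0.28 (adjusted p = 0.132) and Lama2 at 0.26 (0.122), and neither was called, while Nos1 lost its call with the total of listed reads as the scale (-0.12, 0.681). Relative log expression factors put Sntb1 at 0.25 (0.247).

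**Figure D2:**
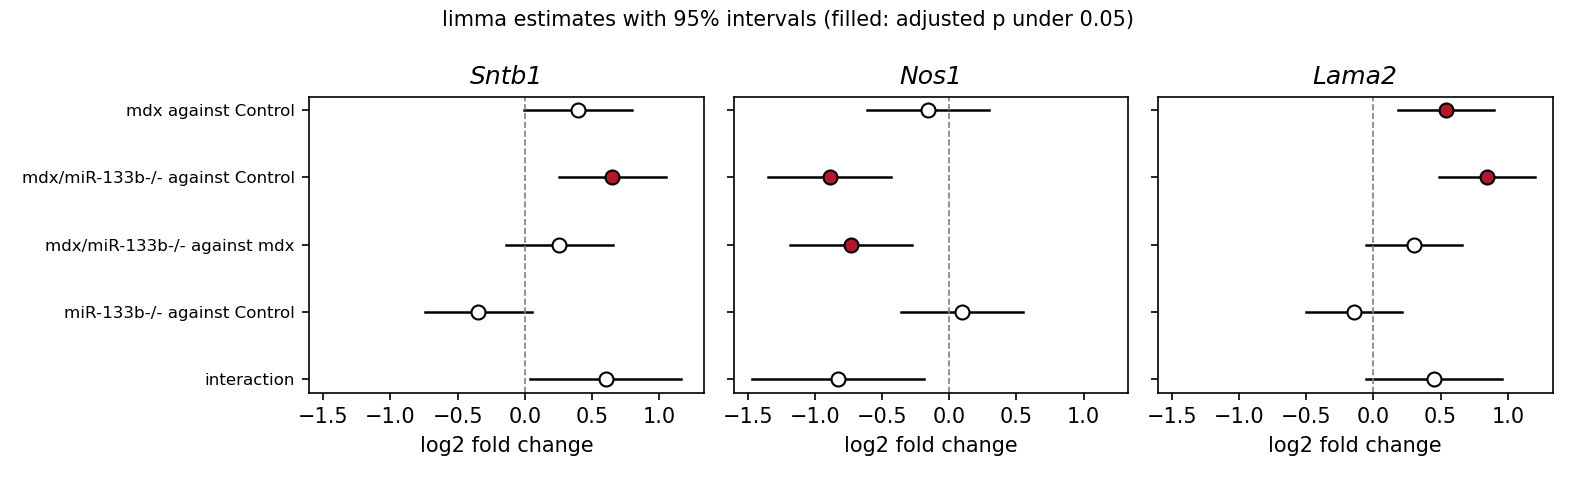
Log2 fold changes of Sntb1, Nos1 and Lama2 in the comparisons of groups and in the interaction, with 95% intervals from limma. Nos1 lies below 0 with its interval in both comparisons of the double mutant, at -0.73 against mdx and -0.89 against Control, and Lama2 lies above 0 with its interval in both comparisons with Control that hold the mdx allele.

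Whether the effect of losing miR-133b differed between muscle with and without dystrophin was tested as an interaction, the double mutant minus mdx difference less the miR-133b-/- minus Control difference. It was -0.83 on the log2 scale for Nos1 (SE 0.31, interval -1.47 to -0.19, unadjusted p = 0.0142, adjusted p = 0.186 by limma). It was 0.60 for Sntb1 (SE 0.27, interval 0.04 to 1.17, unadjusted p = 0.0381, adjusted p = 0.217) and 0.45 for Lama2 (SE 0.24, interval -0.05 to 0.96, adjusted p = 0.288). None passed over all genes. Of the listed genes 0.963% passed, and 20.7% had an unadjusted p under 0.05. The interaction holds the difference of the double mutant from miR-133b-/-, which chose the table, so the selection bears directly on these p-values and intervals. The fall of Nos1 in dystrophic muscle, called above, is therefore not shown to differ from its value in muscle with dystrophin.

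The difference between the double mutant and miR-133b-/- chose the table, and its values are given as a description. The double mutant mean was 2.02 times the miR-133b-/- mean for Sntb1, 0.498 times for Nos1 and 2.001 times for Lama2. By the size of that fold the 3 genes ranked 274th, 265th and 259th of 831 from the smallest. All of the 831 genes (100%) are called in that contrast, and its groups do not overlap in 78.6% of them, the 3 genes included.

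Ratios between the genes within a library do not depend on the library's factor. The ratio of Nos1 to Sntb1 reads was 2.18, 2.77, 1.75 and 1.53 in the double mutant and 4.80, 2.85, 3.56 and 5.16 in mdx. It was 5.46, 7.61, 10.7 and 9.08 in miR-133b-/- and 8.70, 4.48, 5.44 and 5.55 in Control. All 4 double mutant libraries lay below every other library, of which those of miR-133b-/- belong to the difference that chose the table. The log2 ratio in the double mutant differed by -0.99 from that in mdx (SE 0.27), a ratio 1.99-fold lower, and by -1.55 from that in Control (SE 0.28), 2.92-fold lower. Both had an exact permutation p of 0.0286, the smallest possible, and 0.0857 when adjusted over the 12 tests of ratios, which misses 0.05.

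The ratio of Nos1 to Lama2 showed the same order, and the selection of the table bears on it in the same way. It was 0.207, 0.302, 0.241 and 0.254 in the double mutant and 0.454, 0.359, 0.579 and 0.715 in mdx. It was 0.820, 0.844, 1.40 and 0.956 in miR-133b-/- and 1.63, 0.538, 0.687 and 0.780 in Control. The double mutant again lay below all other libraries, with a log2 difference of -1.04 from mdx (SE 0.24, 2.05-fold lower) and -1.73 from Control (SE 0.36, 3.33-fold lower; exact permutation p = 0.0286 and adjusted 0.0857 each). Between mdx and Control the differences were -0.56 for Nos1 to Sntb1 (exact permutation p = 0.114) and -0.70 for Nos1 to Lama2 (0.143), and neither passed.

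The ratio of Sntb1 to Lama2 stayed between 0.0946 and 0.187 over the 16 libraries. Its log2 differences were -0.05 in the double mutant against mdx, -0.19 in the double mutant against Control, -0.14 in mdx against Control and -0.20 in miR-133b-/- against Control. The exact permutation p was 0.343 or more in each, which does not show that the genes moved by the same amount.

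**Figure D3:**
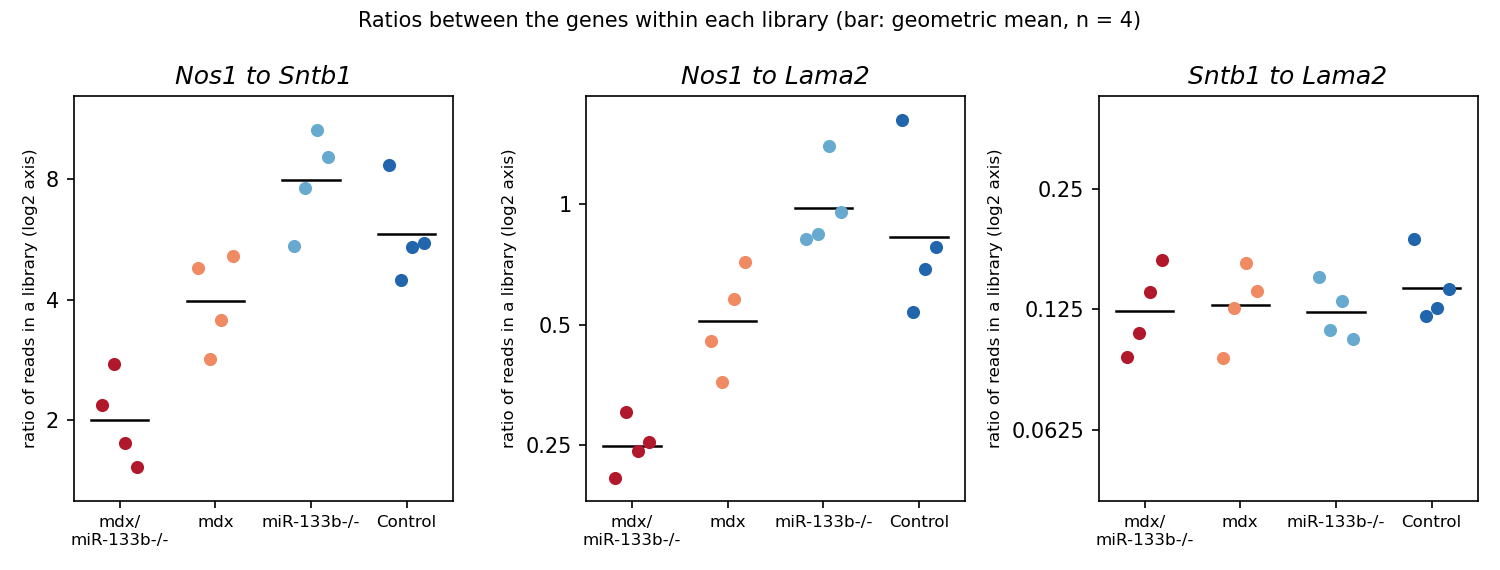
Ratios of reads between the genes within each library, by genotype, on log2 axes that span the same fold range. Points are libraries and bars are geometric means (n = 4). Both ratios with Nos1 are lowest in the double mutant, at 1.53 to 2.77 for Nos1 to Sntb1 and 0.207 to 0.302 for Nos1 to Lama2, while the groups overlap for Sntb1 to Lama2.

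Across the 16 libraries, which share their scaling and fall into groups, Sntb1 correlated with Lama2 at a Pearson r of 0.79, and Nos1 with Sntb1 at -0.69 and with Lama2 at -0.81. After subtraction of the group means the values were -0.16, -0.18 and -0.59. The positive relation of Sntb1 to Lama2 was thus one between groups. These are descriptions of 16 libraries that share group means and scaling, and carry no test.

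The genes whose levels were most like each of the 3 were named by their Pearson r over the 16 libraries, given here with the r of deviations from the group means. For Nos1 they were Pfkm, the muscle form of phosphofructokinase (0.91 and 0.76), Tigar, a phosphatase that limits glycolysis (0.89 and 0.72), and Crat, carnitine acetyltransferase (0.89 and 0.80). All 3 are enzymes of energy metabolism, and the share of such enzymes among the listed genes was not counted. Tigar averaged 538 scaled reads in the double mutant, 853 in mdx, 1335 in miR-133b-/- and 1249.8 in Control. For Lama2 they were Zim1, an imprinted zinc finger gene (0.95 and 0.64), Agtr2, the type 2 angiotensin receptor (0.95 and 0.76), and Lpar1, a receptor for lysophosphatidic acid (0.93 and 0.67). Agtr2 averaged 151 scaled reads in the double mutant, 109 in mdx, 9.38 in miR-133b-/- and 15.2 in Control, a far wider span than that of Lama2. For Sntb1 they were Adgrl3, an adhesion receptor (0.91 and 0.35), Lair1, a collagen-binding receptor of leukocytes (0.90 and 0.40), and Myof, a ferlin of membrane repair and fusion (0.90 and 0.65). Lair1 averaged 129 scaled reads in the double mutant, 73.3 in mdx, 7.53 in miR-133b-/- and 15.2 in Control.

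Other genes of the complex and its surroundings were read from 6 lists of 166 genes in all, of which 16 are in the table and 13 are not among the 3 described. The list of the complex itself holds 20 genes, of which the 3 and Sntb2 are listed. Sntb2 encodes beta-2-syntrophin, a close relative of beta-1-syntrophin. It stood at 658 to 807 scaled reads in the double mutant, 391 to 486 in mdx, 276 to 488 in miR-133b-/- and 347 to 448 in Control. Every double mutant library lay above the 12 others, the opposite of Nos1. The miR-133b-/- libraries among them belong to the difference that chose the table. The share of listed genes set apart in this way was not counted. In the double mutant against mdx Sntb2 rose 1.64-fold (log2 fold change 0.71, SE 0.18, adjusted p = 0.0166 by limma), and in mdx against Control its value was 0.10 (0.620). Its call was lost without double mutant library 4 (0.67, 0.0501), without mdx library 3 (0.65, 0.0600) and with the trend in GC content and length removed (0.32, 0.232). Of the 4 listed genes of the complex, Sntb2 thus rose, Nos1 fell and Sntb1 and Lama2 did not pass in this comparison, with a median log2 fold change of 0.28.

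The list of the basement membrane and laminin receptors, 35 genes, has Lama2 and Col4a5 in the table. Col4a5, a chain of type IV collagen, rose 2.11-fold in mdx against Control (log2 fold change 1.08, SE 0.30, adjusted p = 0.00495 by limma), in the same comparison as Lama2. It stood at 142.6 to 237 scaled reads in the double mutant and 88.8 to 159 in mdx, and its log2 fold change between these was 0.53 (adjusted p = 0.246).

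The costamere and sarcolemma list, 39 genes, has 6 in the table, and they split by direction in mdx against Control, where 44.5% of all listed genes were called higher and 21.7% lower. Myof (log2 fold change 1.14) and Anxa1, an annexin of membrane repair (1.27), rose. Capn3, a muscle calpain (-0.62), Synm, an intermediate filament protein (-0.63), Xirp2, an actin-binding protein of cell junctions (-0.57), and Ky, a Z-disc protein (-1.05), fell. The median of the 6 was -0.60, against 0.44 for all listed genes. None of the 6 passed in the double mutant against mdx. With the total of listed reads as the scale Capn3, Synm, Xirp2 and Ky were no longer called in mdx against Control, and Xirp2 was not called without Control library 1 (-0.50, adjusted p = 0.0506 by limma).

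The nitric oxide list, 34 genes, has Nos1, Calm3, Pfkm and Mb in the table. Of the 4, 3 fell in the double mutant against mdx, Nos1 among them, where 12% of all listed genes were called lower. The median of the 4, with Nos1 included, was -0.76 on the log2 scale. All 4 also passed the selection on the double mutant against miR-133b-/-, and all were lower in the double mutant there, which favours such a joint fall. Calm3 encodes calmodulin, which activates the synthase, and it had a log2 fold change of -0.79 (SE 0.19, adjusted p = 0.00934 by limma). It stood at 701 to 889 scaled reads in the double mutant and 1225 to 1642 in mdx. Mb encodes myoglobin, which binds oxygen and scavenges nitric oxide, and it had a log2 fold change of -1.07 (SE 0.29, adjusted p = 0.0186). Pfkm stood at -0.46 (adjusted p = 0.0862). None of the 4 passed in mdx against Control, where the median was -0.29. The call of Mb was lost without double mutant library 3 (-0.96, 0.0559) or 4 (-0.88, 0.0755) and without mdx library 3 (-0.95, 0.0640). The calls of Calm3, Mb and Nos1 were all lost with the total of listed reads as the scale. Those of Calm3 and Mb were also lost with the trend in GC content and length removed, where Nos1 was called. Pomgnt2, an enzyme of dystroglycan glycosylation, fell in the double mutant against mdx (-1.09, adjusted p = 0.0373). It averaged 28.1 scaled reads in the double mutant and 57.8 in mdx, a low level. Its call was lost with limma-voom on the reads, without double mutant library 4 (-0.81, 0.126) and without each mdx library in turn (adjusted p 0.0619 to 0.0877). The last list, of syntrophin partners, 31 genes, adds no listed gene beyond Nos1, Sntb1 and Sntb2. No gene of the 6 lists passed in miR-133b-/- against Control or in the interaction.

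**Figure D4:**
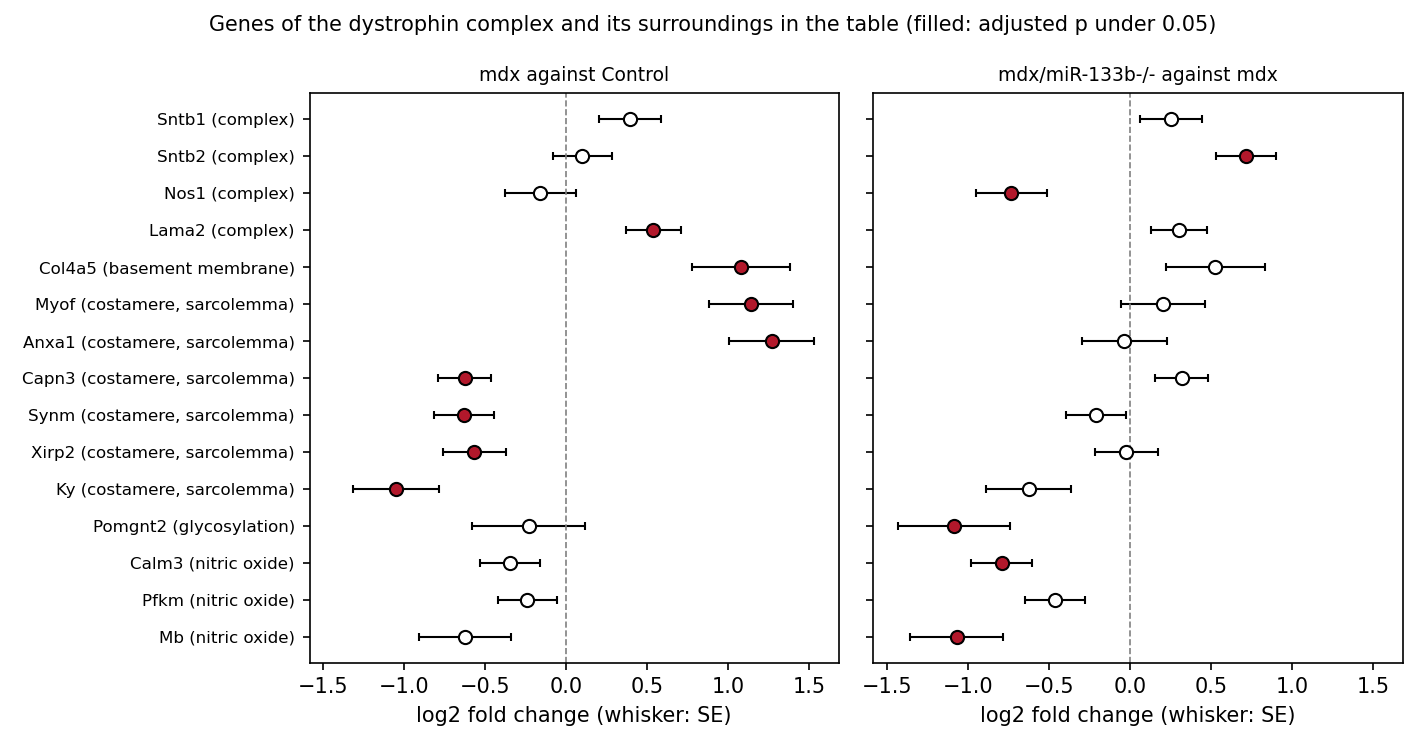
Log2 fold changes of 15 listed genes of the complex and its surroundings in mdx against Control and in the double mutant against mdx, with whiskers of 1 SE from limma; filled points had an adjusted p under 0.05. Lama2, Col4a5, Myof and Anxa1 rose in mdx against Control, where Capn3, Synm, Xirp2 and Ky fell. In the double mutant against mdx Sntb2 rose while Nos1, Calm3, Mb and Pomgnt2 fell.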

How the data were processed

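RNA was isolated with the Aurum kit (Bio-Rad) and DNase treated, per the labels' protocols. HISAT2, HTSeq and GRCm38 are named in the submitters' processing notes; the sources used here give no settings. The deposited values, 1 signal per library for each of 831 genes, are scaled reads. Dividing by 1 factor per library gave whole reads, to within 0.001, for 100% of the authors' values. All identifiers matched GENCODE M21. Log2(value + 1) was fitted with limma 3.58.1 (R 4.3.3), 1 mean per group over 16 libraries, with a variance trend, no filter, and Benjamini-Hochberg adjustment over all 831 genes at 0.05; fold changes on this scale understate those of low genes. A planned count model was not run; limma-voom on the whole reads was run as an alternative. Single values were also tested by exact permutation, two-sided. Counting errors cover counting only. The 3 genes and all lists were chosen with earlier results of these data known. Genes named besides the 3 are the listed genes of the 6 lists, of which 1 is not reported here, and, for each of the 3, the 3 most correlated genes, without predicted models. Of 16 lists fixed, including cell type markers, 14 have a listed gene. The fit was tested on simulated data. Alternatives changed the scaling, pseudocount, filter, variance trend, GC and length trend, replicate block, libraries and tool.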

Additional observations from a re-analysis of the deposited data

How the results depend on the processing

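Over the 15 tested values of the 3 genes, 186 of 207 values under settings other than leaving out a library kept their direction and side of the threshold, as did 135 of 144 with a library left out. The exceptions, as log2 fold changes, follow by setting, and the cause was not tested. With the total of listed reads as the scale they were 0.90 for Sntb1 and 0.35 for Nos1 in mdx against Control (-0.16 with the authors' factors), and for Nos1 -0.47 in the double mutant against mdx and -0.12 against Control; without mitochondrially encoded genes they were 0.72, 0.17, -0.39 and -0.22. Ckm, a fast-fibre gene, stood at 0.0605 in mdx against Control with the first total, against -0.45 with the authors' factors. With relative log expression factors Lama2 was 0.18 in mdx against Control and 0.0076 in miR-133b-/- against Control, and Sntb1 0.25 in the double mutant against Control. With the GC and length trend removed, with or without a replicate block, Lama2 was 0.29 in mdx against Control, -0.0238 in the double mutant against mdx and 0.26 against Control, where Sntb1 was 0.28. With means over transcripts in that trend, a setting chosen after seeing the data, Sntb1 was 0.48 (adjusted p = 0.0369 by limma) in mdx against Control, and 0.40 with the libraries of those groups alone. For the double mutant against miR-133b-/-, which has no test, the values for Sntb1, Nos1 and Lama2 were 0.997, -0.99 and 0.99; they were 0.44, -1.54 and 0.43 with relative log expression factors, 1.78, -0.20 and 1.78 with the total, 1.68, -0.30 and 1.67 without mitochondrially encoded genes, 0.65, -1.45 and 0.35 with the GC and length trend removed, and 0.65 for Lama2 with means over transcripts. With a library left out, Sntb1 ranged from 0.32 to 0.51 and Nos1 from -0.29 to 0.0223 in mdx against Control (the highest without Control library 1), and Nos1 from -0.0472 to 0.28 in miR-133b-/- against Control and from -0.85 to -0.61 in the double mutant against mdx.

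After subtraction of the group means, same-numbered libraries of different groups correlated at -0.28 to 0.25, over 0.1 in 2 of 24 pairs. These values cannot show whether same-numbered libraries were matched by design. A replicate block changed no call of the 3 genes, with an adjusted p by limma of 0.0404 for Nos1 in the double mutant against mdx and 0.0170 for Lama2 in mdx against Control. It ended the calls of Ckm in mdx against Control and of Pomgnt2 in the double mutant against mdx.

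Calls in the double mutant against mdx numbered 162, against 92 with the total of listed reads, 102 without mitochondrially encoded genes, 55 with the GC and length trend removed (also with the block), 100 with means over transcripts and 49 to 197 with a library left out. Calls in the double mutant against miR-133b-/- numbered 831, against 550 with the total. Calls in the interaction numbered 8, against 14 with relative log expression factors, 4 with a minimum mean of 100, 5 with the GC and length trend removed (also with means over transcripts), 15 without double mutant library 1 and 110 without miR-133b-/- library 2. A count model (edgeR) was not run. The full depth, and with it the share of each library outside the listed genes, is unknown.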
